A study of Mus musculus with 7 samples.

Results

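Proteins taken up or made by an antigen-presenting cell are cut into peptides in endosomes and lysosomes by cathepsins and related proteases, and the peptides are loaded there onto major histocompatibility complex class II (MHCII). Ctss (cathepsin S) is best known for trimming the invariant chain that blocks the MHCII groove, and Ctsl (cathepsin L) can serve that step in other cell types. Cst3 encodes cystatin C, a secreted inhibitor of cysteine cathepsins whose transcript is abundant in dendritic cells. The 10 genes described here are the cysteine cathepsins Ctsb, Ctsc, Ctsh, Ctsl, Ctss and Ctsz, the aspartic protease Ctsd, the serine carboxypeptidase Ctsa, the asparaginyl endopeptidase Lgmn (legumain) and Cst3. They were chosen by symbol, and all 10 were present among 15155 genes of the donor table, 26383 of the keratinocyte table and 23737 of the host table.

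RNA of single cells from mouse epidermis was counted with unique molecular identifiers (UMIs) in 7 libraries, sampled 3 weeks past a bone marrow transplant (BMT). Hosts were male C57BL/6 mice carrying CD45.2, irradiated at a lethal dose, and donors were female C57BL/6 mice carrying CD45.1. Donor CD11b+MHCII+ cells came as 3 libraries labelled BMT and 1 labelled BMT plus T cells (BMT + T cells), CD45-negative host keratinocytes as 1 library under each label, and host CD11b+MHCII+ cells as 1 library labelled BMT. The series' protocol text gives the transplanted mice CD4 T cells and also Matahari CD8 cells, whose receptor recognises a male antigen, without setting any library apart, so comparisons here are between labels. How many mice went into a library is not given in the labels. The paper describes cells pooled from several mice, and donor cells from separate experiments, without matching them to these libraries. Between clusters of donor cells, p values measure how far cluster differences vary between libraries, pooled over all clusters. Between labels, they measure the spread between library means. The donor libraries held 2572, 8382, 226 and 719 cells (BMT replicates 1, 2 and 3, then BMT + T cells), with a median of 7022 to 13387 UMIs per cell. Keratinocyte libraries held 2836 and 2590 cells and the host library 781 cells, with a median of 4376 UMIs per host cell.

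Donor cells carry the authors' cluster names, and their markers were checked first. Summed Cd207, Epcam and Mfge8 reached 59.9 to 85.6 UMIs per 10000 UMIs of the cell in resident monocyte-derived Langerhans cells (mLCs), against 0.42 to 1.55 in classical monocytes (Mono). Summed Plac8, Lyz2, Ly6c2 and Chil3 went the other way, with 98.0 to 185 in Mono and 1.70 to 1.98 in resident mLCs. The other clusters were interferon-stimulated gene (ISG) monos, S100a+ monos, Hmox1+ monos, Mrc1+ macs, converting monocyte-derived cells (MCs), cycling mLCs and migrating mLCs. Summed Mrc1 and Arg1 did not set Mrc1+ macs apart. They were at 2.93, 20.6 and 6.86 there in BMT replicates 1 and 2 and BMT + T cells, against 8.49, 51.0 and 24.4 in Hmox1+ monos. In BMT + T cells Mono, at 8.42, was also above Mrc1+ macs. S100a+ monos had at least 20 cells in BMT replicate 2 alone and carried 556 UMIs per 10000 of 4 neutrophil markers (S100a8, S100a9, Csf3r and Retnlg), which lay between 5.86 and 48.5 in Hmox1+ monos and at 9.25 or less in the other clusters. Whether neutrophil RNA has a part in the levels of those clusters was not tested. The summed level of 5 keratinocyte markers was at most 2.39, and that of 3 T cell markers at most 0.12, in every donor cluster of at least 20 cells. Levels below are means over the cells of a library and cluster, in UMIs per 10000 UMIs of the cell.

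Start sites of 8 of the 10 genes were found among the mouse promoter windows of RefSeq (build GRCm38.p6, 250 bases before to 50 after a start). Windows of 4 genes are shown because they head groups that behaved differently below: Cst3, which was highest in mLCs, Ctsc and Ctss, which had their lowest means there, and Ctsl, which was highest in Hmox1+ monos. Each is printed from 250 bases before the start to 10 bases after it, on the strand of the gene. Capitals mark matches, on either strand, to GAGGAAGT (a form of the sequence bound by PU.1, a myeloid factor) or to CACGTG (the palindromic E-box that factors of the TFEB family bind). Cst3 lies at chr2:148875503-148875762 on the minus strand, Ctsc at chr7:88277835-88278094 on the plus strand, Ctss at chr3:95526536-95526795 on the plus strand and Ctsl at chr13:64370511-64370770 on the minus strand. The Ctsl window belongs to a start inside the gene, whose span is chr13:64361890-64370772. That window, with its CACGTG, thus lies within the gene and not upstream of it.
Cst3: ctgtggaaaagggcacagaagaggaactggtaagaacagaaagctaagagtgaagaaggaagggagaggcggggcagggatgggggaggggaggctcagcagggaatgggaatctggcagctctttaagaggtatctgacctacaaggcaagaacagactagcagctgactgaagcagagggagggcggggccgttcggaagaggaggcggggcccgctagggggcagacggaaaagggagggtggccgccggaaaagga
Ctsc: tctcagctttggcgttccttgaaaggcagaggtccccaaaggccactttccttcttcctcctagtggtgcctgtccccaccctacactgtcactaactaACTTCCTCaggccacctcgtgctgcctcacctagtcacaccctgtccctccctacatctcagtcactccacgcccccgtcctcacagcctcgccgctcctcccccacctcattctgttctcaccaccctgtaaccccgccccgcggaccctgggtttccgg
Ctss: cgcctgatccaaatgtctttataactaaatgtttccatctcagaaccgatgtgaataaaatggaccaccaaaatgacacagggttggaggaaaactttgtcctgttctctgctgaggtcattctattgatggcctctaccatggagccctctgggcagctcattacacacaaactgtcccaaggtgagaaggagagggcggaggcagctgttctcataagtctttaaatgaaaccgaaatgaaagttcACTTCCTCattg
Ctsl: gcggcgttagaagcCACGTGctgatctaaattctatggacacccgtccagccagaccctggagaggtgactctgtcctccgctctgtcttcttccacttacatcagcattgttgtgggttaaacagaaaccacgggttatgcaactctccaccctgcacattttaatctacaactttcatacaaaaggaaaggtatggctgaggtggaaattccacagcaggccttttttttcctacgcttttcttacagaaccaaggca

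GAGGAAGT was found in the windows of Ctsc and Ctss, 2 of the 8 genes, against 3.2% of 32851 mouse promoter windows of the same length. CACGTG was found for Ctsa, Ctsd, Ctsl and Lgmn, 4 of the 8, against 7.15% of all windows. The longer TCACGTG, which contains that E-box, was found for Ctsa, Ctsd and Lgmn, against 3.77% of all windows. Ctsa and Lgmn each had 2 windows. A gene was counted if any of its windows held the motif, while the shares are over single windows, so the figures are not strictly alike. For Ctsa and Lgmn the matches lay in the window of a start inside the gene, and the window of the outermost start held none. These matches describe letters in the windows and do not show that a factor binds there. The Cst3 window held none of the 3 motifs.

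Cst3 (chr2:148871722-148875512) was the member that rose with the Langerhans cell fate. Resident mLCs held 211, 179, 180 and 209 UMIs per 10000 in BMT replicates 1, 2 and 3 and BMT + T cells, in that order. The same libraries held 35.8, 25.4, 43.2 and 38.7 in Mono and 26.9, 24.2, 22.3 and 36.9 in Mrc1+ macs. No resident mLC value came near a value of the other 2 clusters. On the log2(level + 0.1) scale used for every fold change between donor clusters, Cst3 was 5.52-fold higher in resident mLCs than in Mono (log2 2.46 ± 0.13 SE, limma adjusted p = 7.2e-13, higher in 4 of 4 libraries). Against Mrc1+ macs it was 7.15-fold higher (log2 2.84 ± 0.13 SE, limma adjusted p = 1.8e-13, 4 of 4 libraries).

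Across the other clusters the level of Cst3 was graded. Its means were 20.3 ± 4.23 (SD, n = 3 libraries) in Hmox1+ monos, 71.3 ± 15.5 (n = 3) in ISG monos, 72.8 ± 12.3 (n = 3) in MCs, 132 ± 6.58 (n = 3) in cycling mLCs, 195 ± 17.8 (n = 4) in resident mLCs and 221 ± 35.2 (n = 2) in migrating mLCs. Resident mLCs, cycling mLCs and MCs did not overlap between neighbours in this order, while migrating and resident mLCs overlapped, as did MCs and ISG monos.

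**Figure D1:**
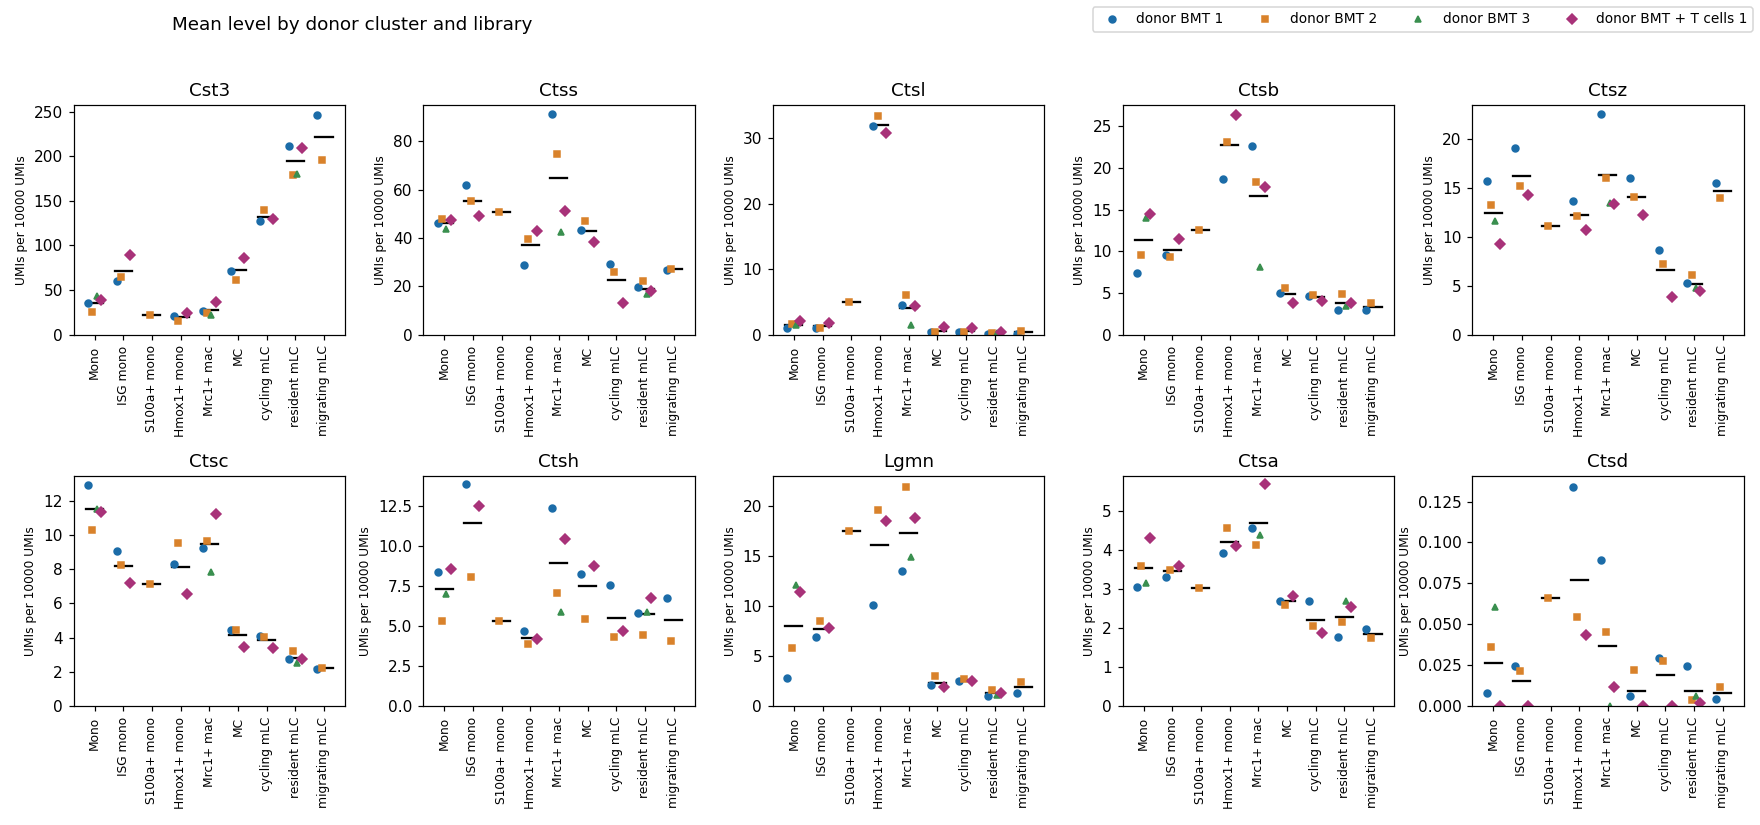
Level of each of the 10 genes in UMIs per 10000 UMIs (y axis, linear, a separate scale per gene) by donor cluster (x axis). Points are libraries with at least 20 cells in the cluster and black lines their mean. Cst3 climbed from 20.3 in Hmox1+ monos to 221 in migrating mLCs, while Ctsl stood at 30.7 to 33.4 in Hmox1+ monos.

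The proteases went the other way. Of 9 members that passed the filter on low values, 7 were lower and 1, Cst3, was higher in resident mLCs than in Mono at a limma adjusted p under 0.05. Among all 7267 genes tested, 14.3% were lower and 18.4% higher. The median log2 fold change was -1.28 over the 9 members and 0.14 over all genes. Adding the fold cutoff that the study used, an absolute log2 fold change above 2, left Cst3 higher (1.5% of all genes) and Lgmn and Ctsl lower (2.56% of all genes). The clusters had been defined from the same expression values, so a call between them restates the annotation in part and cannot serve to test it.

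Against Mrc1+ macs, 8 members were lower and Cst3 was higher in resident mLCs, where 13.6% of all genes were lower and 17.9% higher. The median was -1.70 over the members and 0.12 over all genes. With the fold cutoff Cst3 was again higher (1.05% of all genes), and Lgmn, Ctsl and Ctsb were lower (2.46% of all genes). In a test for any difference among the 9 donor clusters, all 9 members tested passed, against 53.8% of all genes.

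Lgmn (chr12:102394082-102439728), the asparaginyl endopeptidase that also activates other lysosomal proteases, was among the most unequal. Its levels were 0.99, 1.64, 1.10 and 1.34 in resident mLCs, 2.81, 5.82, 12.0 and 11.3 in Mono and 13.5, 21.9, 14.8 and 18.7 in Mrc1+ macs, in the library order above. The 3 clusters did not overlap. Lgmn was 5.19-fold lower in resident mLCs than in Mono (log2 -2.38 ± 0.25 SE, limma adjusted p = 1.2e-07) and 12.6-fold lower than in Mrc1+ macs (log2 -3.66 ± 0.25 SE, limma adjusted p = 1.9e-10). The difference from Mrc1+ macs was nearly equal in the 4 libraries, between -3.71 and -3.63 on the log2 scale.

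Ctsl (chr13:64361890-64370772), an endopeptidase of the lysosome, was highest in 1 small cluster. Hmox1+ monos, named for heme oxygenase, had 31.9, 33.4 and 30.7 UMIs per 10000 in BMT replicate 1, BMT replicate 2 and BMT + T cells. The next highest value in a cluster of at least 20 cells was 6.11, in Mrc1+ macs of BMT replicate 2. The 6 Hmox1+ monos of BMT replicate 3, too few to enter the fit, averaged 45.1. Resident mLCs had 0.08, 0.33, 0.23 and 0.40 in the library order above, 4.75-fold less than Mono (log2 -2.25 ± 0.31 SE, limma adjusted p = 5.5e-06) and 11.3-fold less than Mrc1+ macs (log2 -3.50 ± 0.31 SE, limma adjusted p = 9.9e-09). At levels this low the size of the fold depends on the added 0.1, and with an added 1 the differences were -1.002 and -1.93.

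Ctsb (chr14:63122462-63145923), which cuts proteins both internally and from the carboxyl end, had its highest mean in the same Hmox1+ monos, at 22.7 ± 3.90 (SD, n = 3). Resident mLCs had 2.95, 4.90, 3.42 and 3.79, Mono 7.41, 9.56, 14.0 and 14.5, and Mrc1+ macs 22.6, 18.3, 8.10 and 17.7. Every Mono and Mrc1+ mac value was above every resident mLC value. The fold changes of resident mLCs were -1.54 ± 0.23 against Mono and -2.05 ± 0.23 against Mrc1+ macs (log2 ± SE, limma adjusted p = 1.3e-05 and 2.5e-07). Its span overlaps the neighbouring gene Fdft1 in RefSeq, so some of its reads could be shared.

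Ctss (chr3:95526786-95556405), the invariant chain protease, had its lowest means in the mLC clusters. It had 19.6, 22.0, 16.7 and 18.0 in resident mLCs, 46.3, 47.9, 43.7 and 47.4 in Mono and 91.2, 74.7, 42.5 and 51.1 in Mrc1+ macs. Mono hardly varied between libraries, at 46.3 ± 1.84 (SD, n = 4), whereas Mrc1+ macs varied at 64.9 ± 22.2 (SD, n = 4) and overlapped Mono. Resident mLCs were 2.43-fold lower than Mono (log2 -1.28 ± 0.17 SE, limma adjusted p = 2.4e-06) and 3.25-fold lower than Mrc1+ macs (log2 -1.70 ± 0.17 SE, limma adjusted p = 3.5e-08). MCs, at 42.9 ± 4.22 (n = 3), lay above cycling mLCs at 22.8 ± 8.44 (n = 3) without overlap.

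Ctsc (chr7:88278024-88315861), the dipeptidyl peptidase that activates serine proteases of granules, had its highest mean in Mono, with 12.9, 10.3, 11.5 and 11.4. Resident mLCs had 2.76, 3.23, 2.52 and 2.74, a difference of log2 -2.00 ± 0.12 (SE, limma adjusted p = 6.9e-12) that just missed the cutoff of 2 before rounding. Monocyte and macrophage clusters all lay above MCs, cycling mLCs, resident mLCs and migrating mLCs for this gene.

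Ctsz (chr2:174427494-174439039), a carboxypeptidase also called cathepsin X, was the protease that differed most between the mLC states. Resident mLCs had 5.30, 6.10, 4.78 and 4.45, and migrating mLCs 15.5 in BMT replicate 1 and 13.9 in BMT replicate 2, the 2 libraries with enough of these cells. The 16 migrating mLCs of BMT + T cells averaged 15.8, and the 2 of BMT replicate 3 averaged 8.06. Those 2 cells had summed Ccr7, Nr4a3 and Cd83 at 0.65, against 18.2 to 24.2 in migrating mLCs of the other libraries. Their summed Plac8, Lyz2, Ly6c2 and Chil3 was 42.3, against 3.04 to 10.1, so their markers do not bear out the name. Ctsz was 2.46-fold higher in migrating than in resident mLCs (log2 1.30 ± 0.16 SE, limma adjusted p = 2.1e-06, higher in 2 of 2 libraries). Its level in migrating mLCs, 14.7 ± 1.12 (SD, n = 2), overlapped those of Mono, ISG monos, Mrc1+ macs and MCs. Resident mLCs were lower than Mono by log2 -1.24 ± 0.13 (SE, limma adjusted p = 3.6e-08) and lower than Mrc1+ macs by -1.62 ± 0.13 (SE, limma adjusted p = 5.2e-10). Its span overlaps Nelfcd.

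Ctsh (chr9:90054267-90076095), an aminopeptidase, varied least between these fates. Resident mLCs had 5.85, 4.46, 5.90 and 6.77 and Mono 8.39, 5.34, 6.98 and 8.58, which overlapped. The difference of log2 -0.34 ± 0.14 (SE) did not pass (limma adjusted p = 0.077), and that from Mrc1+ macs did, at -0.59 ± 0.14 (SE, limma adjusted p = 0.0027), although 1 of 4 libraries, BMT replicate 3, had no difference (0.002 on the log2 scale). The call against Mrc1+ macs was lost in 3 of 13 alternatives (limma adjusted p up to 0.19), among them that without BMT replicate 1 (limma adjusted p = 0.090). A call against Mono was gained in 4 of 13 (limma adjusted p down to 0.012), among them that without BMT replicate 3 (limma adjusted p = 0.0496). Its highest mean was in ISG monos, at 11.5 ± 3.04 (SD, n = 3), and its lowest in Hmox1+ monos, at 4.26 ± 0.42 (SD, n = 3).

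Ctsa (chr2:164832872-164841032), a carboxypeptidase that also protects lysosomal glycosidases, was 1.52-fold lower in resident mLCs than in Mono (log2 -0.60 ± 0.14 SE, limma adjusted p = 0.0020) and 2.01-fold lower than in Mrc1+ macs (log2 -1.01 ± 0.14 SE, limma adjusted p = 5.5e-06). It spanned 1.77 to 2.70 in resident mLCs, 3.04 to 4.30 in Mono and 4.13 to 5.69 in Mrc1+ macs. Without BMT replicate 2 the difference from Mono did not pass (limma adjusted p = 0.060). Its span overlaps Neurl2 and Pltp.

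Ctsd (chr7:142375910-142387827), the main aspartic protease of lysosomes, was counted at 0.13 UMIs per 10000 or less in every donor cluster of at least 20 cells and did not pass the filter. It had no UMI in 5 of the 27 combinations of library and cluster. Why so few of its UMIs were counted was not tested.

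**Figure D2:**
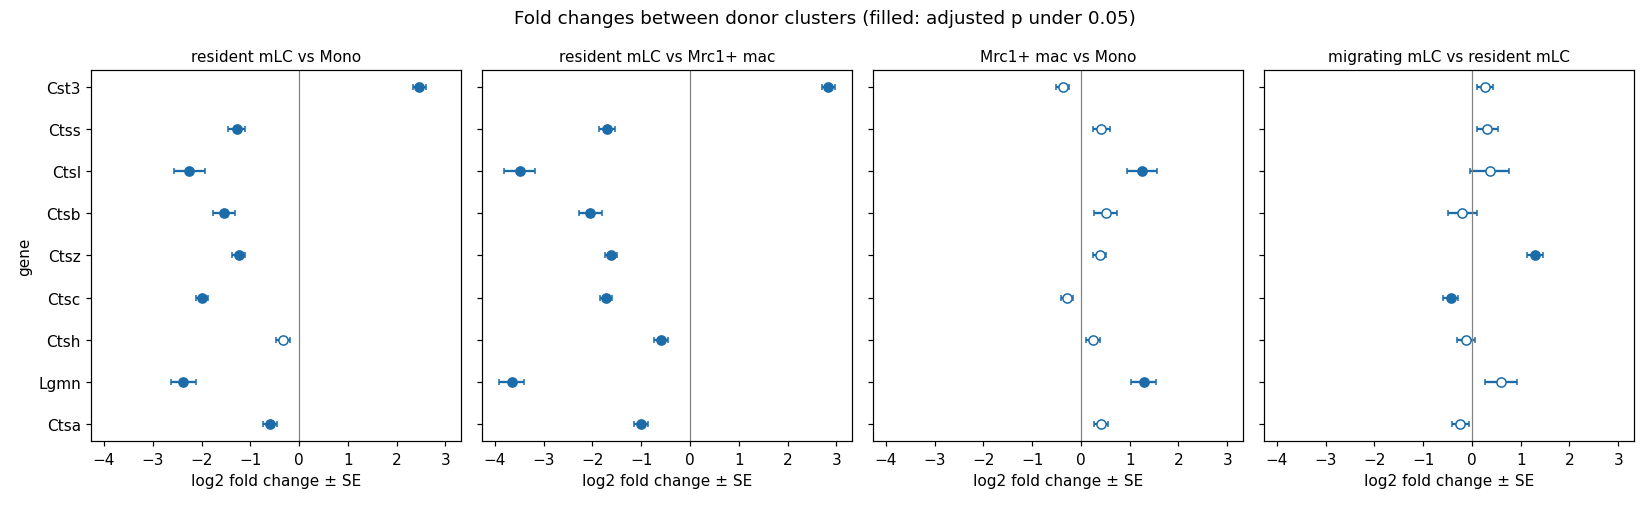
Log2 fold change (x axis, with bars of 1 SE) of the 9 tested genes (y axis) in 4 comparisons of donor clusters, filled where the adjusted p was under 0.05. Cst3 stood apart on the higher side, at 2.46 and 2.84, in the comparisons of resident mLCs with Mono and Mrc1+ macs, and Ctsz alone was filled on the higher side between migrating and resident mLCs.

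In Mrc1+ macs 2 of the 9 members tested were higher than in Mono. Lgmn was 2.43-fold higher (log2 1.28 ± 0.25 SE, limma adjusted p = 0.0025) and Ctsl 2.37-fold higher (log2 1.25 ± 0.31 SE, limma adjusted p = 0.014), each in 4 of 4 libraries, although Ctsl in BMT replicate 3 differed by just 0.0016 on the log2 scale. None was lower at that threshold, and none passed the fold cutoff. Among all genes 3.67% were higher and 4.18% lower, and with the fold cutoff 0.22% and 0.193%. The members' median log2 fold change was 0.41, with 7 of 9 above 0, against 0.03 over all genes. The Mrc1+ macs of BMT replicate 3 were 45 cells with a median of 2214 UMIs, the shallowest entry of the fit, and had the lowest Ctsb, Ctsl and Ctss of the 4. Leaving out all clusters with under 50 cells, which removes them together with other small clusters, raised the number of members called from 2 to 7, and the part of depth was not tested. The number called among all genes also moved, from 571 to between 120 and 815 over the alternatives. Ctsl did not pass without BMT replicate 1 or without BMT replicate 2, and Lgmn did not pass without BMT replicate 2.

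Migrating mLCs had, besides higher Ctsz, lower Ctsc (log2 -0.44 ± 0.16 SE, limma adjusted p = 0.048), with 2.19 and 2.22 against 2.52 to 3.23 in resident mLCs. This call was lost in 7 of 13 alternatives, among them those without BMT replicate 1 (limma adjusted p = 0.374), without BMT replicate 2 (0.379) and without BMT + T cells (0.0621). Of all genes 6.81% were higher and 13.3% lower in migrating mLCs, and with the fold cutoff 1.71% and 0.908%, which no member passed. The median was 0.28 over the members and -0.26 over all genes.

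Set against each other within a profile, inhibitor and proteases changed places. The 6 cysteine cathepsins together took 0.41% of all UMIs in resident mLCs and 1.41% in Mrc1+ macs (means of 4 libraries), while Cst3 took 2.25% and 0.35%. For each UMI of a cysteine cathepsin there were 5.44 ± 0.70 UMIs of Cst3 in resident mLCs (SD, n = 4), 4.27 ± 0.38 in migrating mLCs (n = 2), 3.19 ± 0.89 in cycling mLCs (n = 3), 1.09 ± 0.35 in MCs (n = 3), 0.82 ± 0.30 in ISG monos (n = 3), 0.42 ± 0.09 in Mono (n = 4), 0.28 ± 0.13 in Mrc1+ macs (n = 4) and 0.21 ± 0.07 in Hmox1+ monos (n = 3). The lowest resident mLC library, at 4.53, was above the highest Mrc1+ mac library, at 0.43.

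**Figure D3:**
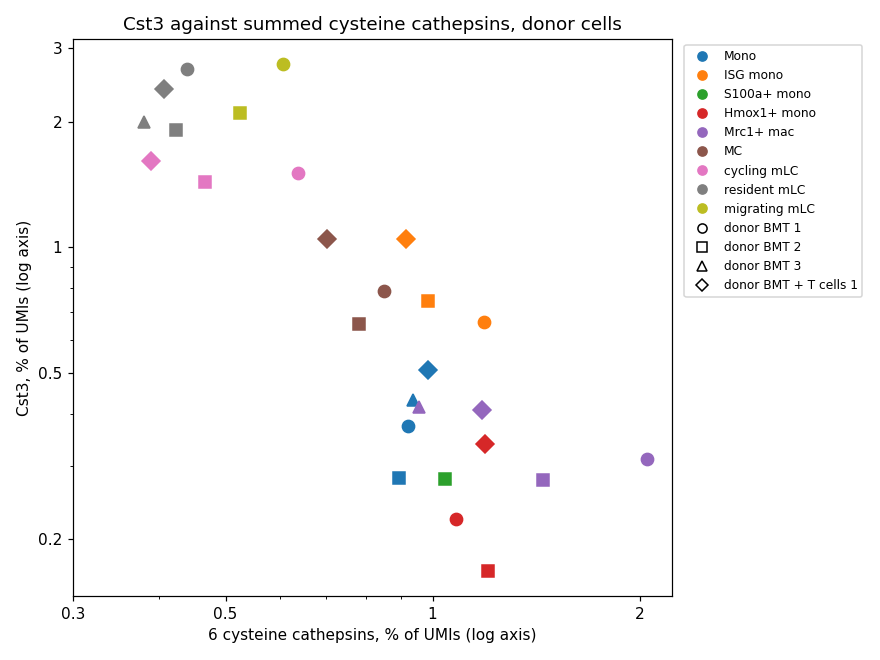
Share of all UMIs taken by Cst3 (y axis, percent, log axis) against the share taken by the 6 cysteine cathepsins (x axis, percent, log axis) in donor cells. Each point is 1 library and cluster, with the cluster in colour and the library as the shape. The mLC clusters sit at the upper left and Mrc1+ macs and Hmox1+ monos at the lower right.

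Over the 27 profiles of a library and cluster, with each library centred on its mean, the log2 level of Cst3 correlated with that of Lgmn at r = -0.89, Ctsb at -0.89, Ctsa at -0.87, Ctsl at -0.87, Ctsc at -0.87, Ctss at -0.72, Ctsz at -0.60 and Ctsh at -0.14. The proteases themselves ran from r = 0.95 for Ctsb with Lgmn to -0.11 for Ctsh with Ctsl. The genes most like Cst3 were Cldn1 (r = 0.96), Spint2 (0.94) and Acadl (0.92). Most like Ctsb were Pld3 (0.97), Lgmn (0.95) and C3ar1 (0.95), and most like Ctsl were Clec4d, C5ar1 and Mindy1 (0.95 each). These values are descriptions, since profiles share libraries and clusters.

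Along the latent time that the authors deposited for each donor cell, which they derived from RNA velocity, Ctss had a negative Spearman rho in every library, at -0.36, -0.51, -0.64 and -0.72 over the 2572, 8382, 226 and 719 cells of BMT replicates 1, 2 and 3 and BMT + T cells. Ctsh had a rho between -0.41 and -0.37. Ctsa, Ctsb, Ctsc, Ctsl, Ctsz and Lgmn were also negative in every library, from -0.05 for Ctsl in BMT replicate 1 to -0.68 for Ctsz in BMT + T cells. Cst3 had -0.09 in BMT replicate 1 and 0.23 to 0.33 in the other libraries. The UMI total of a cell also fell with latent time, with a rho of -0.21, -0.29, -0.18 and -0.35 in the same order of libraries, and its part in these values was not tested. Over all donor cells, median latent time was 0.17 in ISG monos, 0.22 in MCs, 0.25 in Mono, 0.26 in Mrc1+ macs and 0.54 in resident mLCs. The axis thus does not start at Mono, and a negative rho is not a fall from Mono to mLCs. Latent time comes from RNA of the same cells, so these too are descriptions.

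Other genes of the pathway were read from fixed lists, and the shares of all genes called in the same comparisons are given beside their counts. Of 29 other lysosomal genes tested, 13 were lower and 2 higher in resident mLCs than in Mono, where 14.3% of all genes were lower and 18.4% higher, and their median log2 fold change was -0.34 against 0.14 over all genes. Against Mrc1+ macs 21 were lower and 0 higher, where 13.6% and 17.9% of all genes were, with a median of -0.75 against 0.12. Between Mrc1+ macs and Mono 4 were higher and 0 lower, where 3.67% and 4.18% of all genes were, with 24 of 29 above 0 and a median of 0.34 against 0.03. In migrating mLCs 5 were higher and 4 lower than in resident mLCs, where 6.81% and 13.3% of all genes were. Psap, the precursor of the saposins, fell from 20.4 ± 4.36 in Mono to 3.58 ± 0.99 in resident mLCs (SD, n = 4 each, log2 -2.49 ± 0.17 SE, limma adjusted p = 3.4e-11). In migrating mLCs Psap was at 11.1 ± 0.88 (SD, n = 2), higher than in resident mLCs (log2 1.59 ± 0.22 SE, limma adjusted p = 6.6e-06). Npc2, a cholesterol carrier of lysosomes, fell from 18.1 ± 0.71 to 5.45 ± 0.28 (SD, n = 4 each, log2 -1.71 ± 0.14 SE, limma adjusted p = 4.0e-10).

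Among lysosome transcription factors, Tfe3 and Mitf were lower in resident mLCs than in Mono (14.3% of all genes) and Mrc1+ macs (13.6% of all genes). Tfeb was not called in either comparison. Tfe3 differed from Mono by log2 -1.19 ± 0.23 (SE, limma adjusted p = 2.2e-04) and Mitf by -1.01 ± 0.23 (SE, limma adjusted p = 0.0014). Between migrating and resident mLCs Tfeb was lower (13.3% of all genes), at 0.23 ± 0.01 (SD, n = 2) against 0.55 ± 0.12 (SD, n = 4), by log2 -0.87 ± 0.26 (SE, limma adjusted p = 0.019).

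Of 7 MHCII peptide loading genes tested, 4 were higher and 0 lower in resident mLCs than in Mono (18.4% and 14.3% of all genes), and 5 were higher and 0 lower than in Mrc1+ macs (17.9% and 13.6% of all genes). H2-DMb2, a chain of the peptide exchanger H2-DM, rose from 0.36 ± 0.06 in Mono to 4.15 ± 0.70 in resident mLCs (SD, n = 4 each, log2 3.20 ± 0.21 SE, limma adjusted p = 2.2e-11). Cd74, the invariant chain that Ctss trims, rose from 210 ± 56.4 to 369 ± 105 (SD, n = 4 each, log2 0.81 ± 0.13 SE, limma adjusted p = 2.1e-05). In migrating mLCs 2 of the 7 were lower (13.3% of all genes), among them H2-DMa, at 7.49 ± 0.40 (SD, n = 2) against 19.3 ± 1.43 (SD, n = 4) in resident mLCs (log2 -1.50 ± 0.14 SE, limma adjusted p = 4.4e-08).

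Of the other cystatins and stefins, 3 were tested, and Cstb, an inhibitor inside the cell, did not follow Cst3. It was at 15.05 ± 6.85 in Mono, 19.9 ± 5.42 in Mrc1+ macs and 2.52 ± 0.49 in resident mLCs (SD, n = 4 each), and rose to 13.2 ± 0.54 (SD, n = 2) in migrating mLCs. The changes were log2 -2.43 ± 0.16 from Mono to resident mLCs and 2.07 ± 0.20 from resident to migrating mLCs (SE, limma adjusted p = 2.1e-11 and 6.4e-08). In these comparisons 14.3% of all genes were lower and 6.81% higher, respectively. Of 3 other cathepsins tested, Ctsk alone was called, at 1.12 ± 0.78 in Mrc1+ macs against 0.04 ± 0.02 in Mono (SD, n = 4 each, log2 2.47 ± 0.53 SE, limma adjusted p = 0.0053). Of all genes 3.67% were higher there.

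The label BMT + T cells was compared with BMT on the mean over Mono, Mrc1+ macs and resident mLCs, the 3 clusters with at least 20 cells in all 4 libraries. No member was called, and 0% of all 7267 genes were called by limma at an adjusted p under 0.05, with 4.93% at an unadjusted p under 0.05, none of them a member. The largest difference was that of Ctsl, with mean log2 levels of -0.07, 0.75 and -0.12 in BMT replicates 1, 2 and 3 and 0.77 in BMT + T cells (log2 0.58 ± 0.37 SE, limma adjusted p = 0.94). Cst3 had 5.88, 5.59 and 5.81 against 6.06 (log2 0.31 ± 0.29 SE, limma adjusted p = 0.95), and Ctsz 3.64, 3.46 and 3.20 against 3.05 (log2 -0.38 ± 0.30 SE, limma adjusted p = 0.94). The single library under the second label was assumed to vary like the other 3, and with 1 library in an arm the lack of calls does not show that levels were alike. BMT + T cells lay above all 3 BMT libraries for 6 of the 9 members (30.9% of all genes) and below them for Ctsz (20.6% of all genes). The members' median difference was 0.31 on the log2 scale, against 0.05 over all genes.

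Keratinocytes, which are not professional antigen-presenting cells, held a different set. Ctss was all but missing, with 7 of 27817737 UMIs in the BMT library and 13 of 24959785 in BMT + T cells. Ctsl was highest in the Basal cluster, at 3.98 (BMT) and 3.61 (BMT + T cells), against 1.38 to 2.25 in the other clusters. Cst3 was high in the Follicular cluster, at 25.6 and 18.8, and in the Differentiated cluster, at 19.3 and 18.8, and lowest in the cluster named KC_Five, at 10.8 and 10.6. As summed UMIs per 10000, the Follicular cluster was below the Differentiated cluster in BMT + T cells, at 16.97 against 18.95. The Follicular cluster also carried summed fibroblast markers (Col1a1, Col1a2 and Dcn) at 4.81 to 6.20, and melanocyte markers (Pmel, Dct and Mlana) at 1.17 to 2.82, against at most 0.54 and 0.06 in the other clusters, and their part in its levels was not tested. Ctsb lay between 1.58 and 3.29 and Ctsh between 1.39 and 2.22 over all clusters and both libraries. Summed markers of myeloid cells were at 2.54 or less in every keratinocyte cluster, and most of that was Cd74 and H2-Ab1. In the Basal cluster Cd74 was at 0.32 (BMT) and 1.81 (BMT + T cells), H2-Ab1 at 0.09 and 0.68, and Ptprc at 0 and 0.0014. Cd74 and H2-Ab1 were higher in the BMT + T cells library in every cluster.

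Between the keratinocyte labels, with 1 library each and no test, none of the 8 members with a mean of at least 0.1 differed by more than 0.5 on the log2 scale when clusters were weighted equally, where 0.85% of 7650 genes did. The differences ran from -0.14 for Ctsc to 0.12 for Lgmn, with a median of -0.04 against -0.01 over all genes. Lgmn in the Basal cluster went from 1003 to 1202 UMIs, a ratio of shares of 1.17 (exact 95% interval 1.08 to 1.27, for counting error only). Cst3 in the Follicular cluster had a ratio of 0.87 (0.83 to 0.90), and its mean per cell a log2 difference of -0.44. These compare 2 libraries, not 2 conditions.

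**Figure D4:**
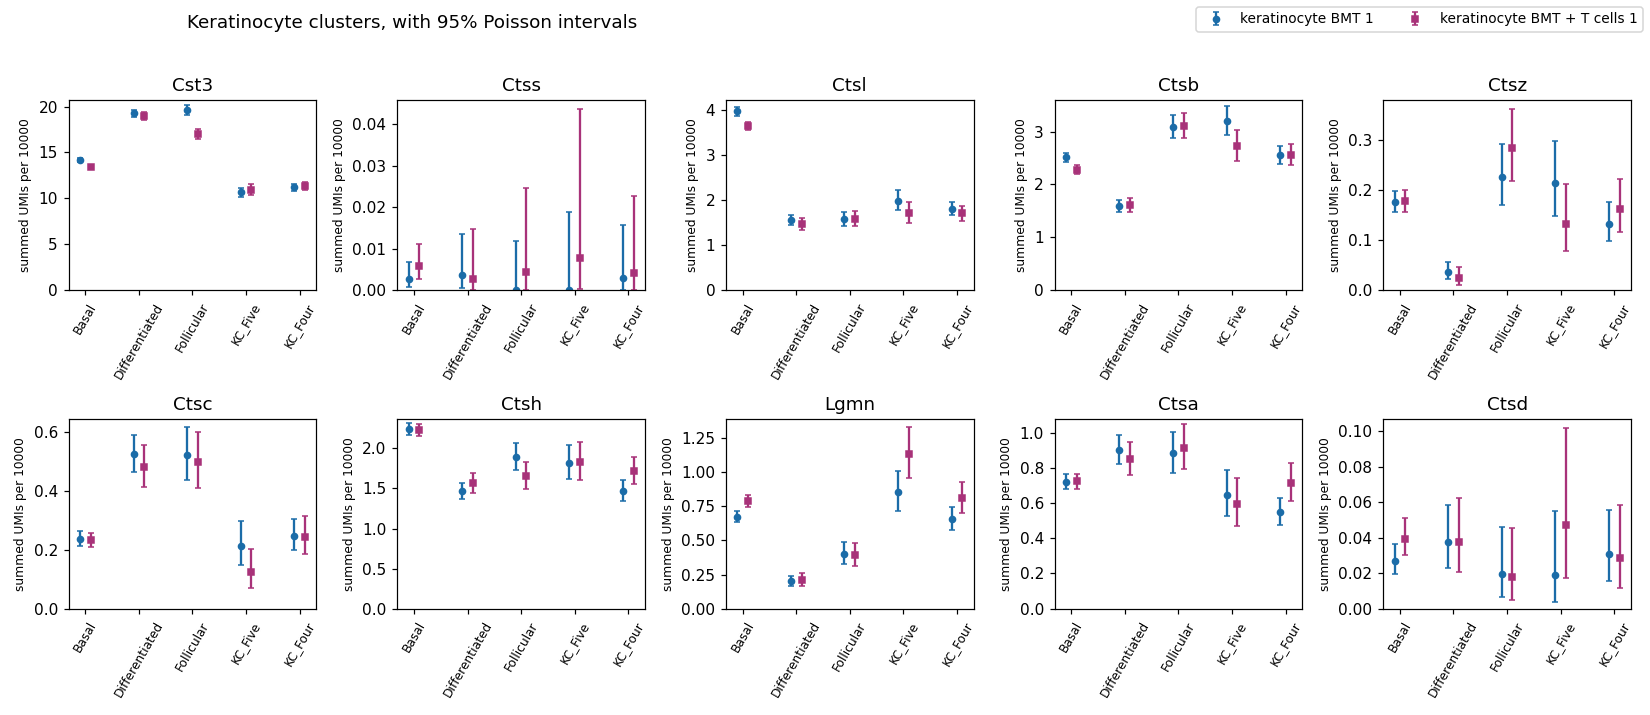
Summed UMIs of each gene per 10000 UMIs (y axis, linear, a separate scale per gene) in the 5 keratinocyte clusters (x axis) of the BMT and BMT + T cells libraries, with exact 95% Poisson intervals for counting error. Ctsl stands highest in the Basal cluster in both libraries, and Ctss stays near 0.

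Host CD11b+MHCII+ cells came as 1 library in 7 numbered clusters of 276, 170, 161, 90, 43, 23 and 18 cells, with a median of 14.04% mitochondrial UMIs against 1.39% to 2.02% in the donor libraries. Of the 781 host cells, 208 were over 20% mitochondrial and 133 under 500 genes, limits past which the paper describes removing cells. All were kept here, and host levels without them are not given. The sort was not clean by the markers: cluster 5 had 205 UMIs per 10000 of Krt14 and cluster 6 had 75.4 of Cd3g. Cluster 2 carried 40.6 of 6 summed keratinocyte markers and 2.84 of 4 T cell markers, cluster 7 carried 45.6 of the keratinocyte markers, and clusters 1, 3 and 4 carried 2.86 to 6.08 of them. The part of this RNA in the levels below was not tested. The markers Cd207, Epcam and Mfge8 summed to 48.3 in cluster 2 and 30.4 in cluster 4, and were lower in the other 5 clusters. Ccr7, Nr4a3 and Cd83 summed to 16.8 in cluster 4 and 1.60 or less elsewhere. Cluster 2 was the shallowest, with a median of 1764 UMIs per cell.

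Clusters 2 and 4 also held the most Cst3, at 94.8 and 72.2, against 0.98 to 15.5 in the other 5. Ctss was at 4.14 and 2.74 there and at 0.93 or less elsewhere. Ctsz was highest in cluster 4, at 4.28 against 1.94 in cluster 2, and as summed UMIs the intervals of the 2 clusters, 4.01 to 5.11 and 2.58 to 3.35, did not overlap. Lgmn was at 0.56 or less and, outside cluster 5, Ctsl at 0.41 or less. The keratin-rich cluster 5 had 1.91 of Ctsl. Ctsd, so low in donor cells, reached 4.83 in the Cd3g-rich cluster 6 and 1.43 in cluster 5, with 71 and 216 UMIs, and Ctsh had 0 of the UMIs of cluster 6, which allows up to 0.17 per 10000. In the other host clusters the mean level of Ctsd ran from 0.03 in cluster 4 to 0.87 in cluster 2. As summed UMIs per 10000, Ctsd was at 1.45 in cluster 5 and 0.30 in cluster 2. The keratinocyte libraries held just 0.028 (BMT) and 0.036 (BMT + T cells) by that measure. Ctsd thus also differed between the keratin-rich host cluster and the keratinocyte libraries. Host and donor tables were normalised separately, and the cause of the difference in Ctsd was not tested.

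**Figure D5:**
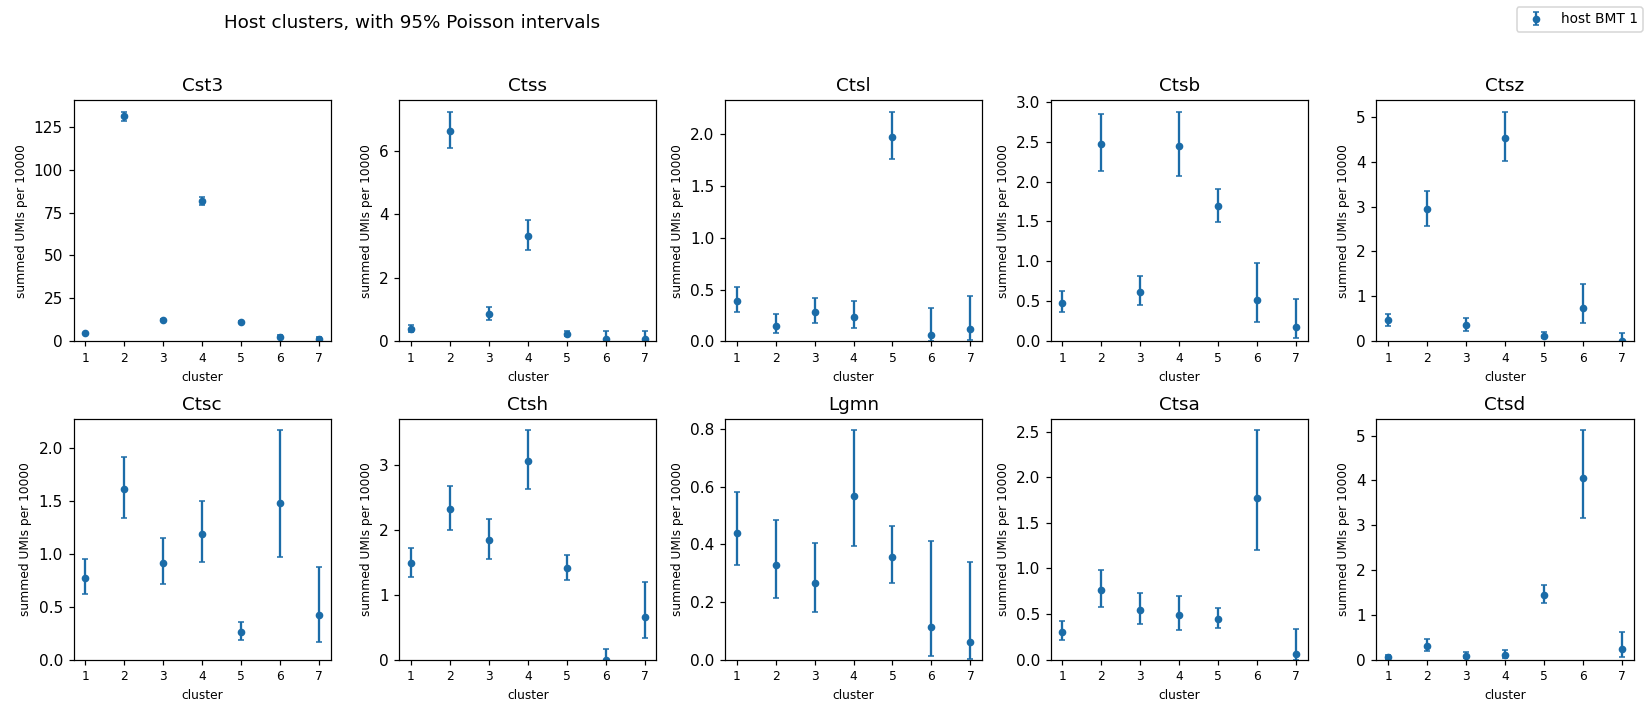
Summed UMIs of each gene per 10000 UMIs (y axis, linear, a separate scale per gene) in the 7 host clusters (x axis) of the single host library, with exact 95% Poisson intervals for counting error. Cst3 and Ctss stand highest in cluster 2, Ctsz in cluster 4, Ctsl in cluster 5 and Ctsd in cluster 6.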

How the data were processed

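Single-cell libraries were made by the authors with a 10x 5' kit and quantified, per the labels, with kallisto, bustools and Seurat on build GRCm38, and versions are not given in the sources used here. The deposited expression values are the natural log (ln) of 1 plus UMIs per 10000 UMIs of the cell. The authors also deposited the mitochondrial share as a percent and latent time as a fraction, and named the clusters. Per the paper, the authors had already removed likely doublets. Undoing the log gave whole UMI counts for 100% of nonzero values within 0.001. Genes listed in the donor table held 91.3% of UMIs in the median cell.

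All cells were kept. UMIs per 10000 were averaged per library and cluster, leaving out combinations under 20 cells. Tests used log2(level + 0.1), for genes averaging 0.1 or more, in limma (version 3.58.1, R version 4.3.3) with library as a block, a variance trend and robust moderation over 27 profiles, adjusted over all 7267 genes by Benjamini-Hochberg. The labels were compared on library means over 3 clusters. Scripts were tested on simulated data. No count model was run on the recovered UMI counts. Keratinocyte and host libraries had no replicate and no test. Exact 95% Poisson intervals, with a floor of 3 counts at 0, cover counting error only. Pairs of libraries shared 0 to 7 cell barcodes.

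The members and gene lists were chosen with earlier results of these data known. All 10 members are named, with at most 4 genes of any other list (the largest changes at an adjusted p under 0.05) and the 3 genes most like a member. Promoter windows and gene positions came from RefSeq tables of GRCm38.p6. Alternatives were the added constant, the filters, the averaging, the cell minimum, centring, leaving out each library, and fitting only the clusters compared.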

Additional observations from a re-analysis of the deposited data

How the results depend on the processing

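The counts of members called between resident mLCs and Mono (8) and between resident mLCs and Mrc1+ macs (9) stayed within 7 to 9 and 8 to 9 over 13 alternatives each, and Cst3 stayed higher and Lgmn, Ctsl, Ctsb, Ctsc, Ctss and Ctsz lower at an adjusted p under 0.05 in all of them. Past the fold cutoff, 3 and 4 members became 1 and 2 with a constant of 1 added, and 1 and 2 with the mean of the deposited ln values. Among all genes the number called against Mono moved from 2375 to between 1293 and 3247. Against Mrc1+ macs it moved from 2292 to between 1384 and 3127. Past the fold cutoff, the numbers over all genes moved from 295 to between 21 and 630 and from 255 to between 18 and 547.

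Between Mrc1+ macs and Mono the 2 members called became 1 with no filter on low genes, 4 with ln means, 5 with summed UMIs, 7 with at least 50 cells, 4 without cells under 500 genes or over 20% mitochondrial, and 0 with only the 2 clusters in the fit. Leaving out a library gave 0 to 3. Among all genes the number called moved as well, from 571 to between 120 and 815. Ctsh and Ctss turned to -0.031 and -0.058 (log2) with ln means. Between migrating and resident mLCs the 2 members called became 1 with a constant of 1, with no filter, with ln means and with profiles centred on their median, and 5 with only the 2 clusters in the fit. Leaving out a library gave 1 to 2. Among all genes the number called in this comparison moved from 1464 to between 345 and 3277. Centring turned Ctsb to 0.014 and Ctsh to 0.090, only the 2 clusters turned Ctsh to 0.031, and ln means turned Ctsl to -0.012 and Cst3 to -0.079. None of these was called.

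Between the labels, no alternative called a member, and Ctsc turned to -0.033 with at least 50 cells and to between -0.17 and 0.12 when a library was left out. The keratinocyte count of 0 did not change. In the host, 5 members were highest in the cluster with the most resident mLC markers, and 4 by summed UMIs. The share of all genes highest in that cluster was not counted, so these counts show nothing particular to the members. Where counts moved, the cause was not tested. Comparisons between donor clusters were paired by library through the block. Between the labels no paired analysis was possible, because replicate numbers are not shared between groups with 2 or more libraries each. Migrating mLCs rest on 2 libraries, Ctsd lies near the limit of counting, and Ctsl in resident mLCs of BMT replicate 1 rests on 9 UMIs.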
